A study of Mus musculus with 18 samples.

Results

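The Dlk1-Dio3 imprinted domain of mouse chromosome 12 was taken as all CpGs of build mm9 at chr12:110680000-111530000, a stretch chosen by position and not by any measured level. It held 713 of the 1485218 CpGs that were read in at least 1 of the 18 samples. The domain has 6 genes of interest here: Dlk1, Meg3, Rtl1, Rian, Mirg and Dio3. The assay was reduced representation bisulfite sequencing, in which DNA is cut at a CpG-containing site, short CpG-rich fragments are kept, and a cytosine protected from bisulfite is read as methylated. Fibroblasts from mouse embryos (MEF), the starting cells of reprogramming, came from 4 female and 2 male samples. Embryonic stem cells (ESC) came from 4 female and 2 male samples, and induced pluripotent stem cells (iPSC), its end product, from 2 female samples. Intermediates of reprogramming, taken as female, were sorted by the surface antigen SSEA1, which mouse pluripotent cells carry, into SSEA1+ (n = 2) and SSEA1- (n = 2). The labels give cell type and sex only, and the titles of the intermediates give no sex. They do not name strain, genotype, clone, passage, the age of the embryos or the reprogramming factors, nor whether samples of a group were separate cultures. The p-values therefore measure only how far these samples spread, and that spread may be technical. The study's title names reprogramming to pluripotency, and the comparisons follow the domain between the start, the intermediates and the end of that process.

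In an imprinted domain the maternal and paternal copies carry different methylation, and genes are expressed from 1 copy only. At Dlk1-Dio3 an intergenic control region and the Meg3 promoter are methylated on the paternal copy, so that a normal imprint read from both copies together gives an intermediate level. The paternal copy expresses Dlk1, a membrane protein of the Notch ligand family, Rtl1, derived from a retrotransposon, and Dio3, an enzyme that inactivates thyroid hormone, while the maternal copy expresses the noncoding RNAs Meg3, Rian and Mirg with many small RNAs. Gain of methylation at the control region and silencing of Meg3 is a known defect of some mouse iPSC lines. The copies were not separated in these data.

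Promoter sequences of 300 bases (250 before and 50 after the transcription start, RefSeq, GRCm38.p6) were placed on mm9 by matching the spacing of their CG pairs to the positions of the deposited CpGs. The 3 below are shown because they are the only promoters within the domain that could be placed, and because they hold CpGs of different levels: intermediate in many libraries at Meg3 and almost unmethylated at Dio3 and its antisense neighbour Dio3os. They are written 5′ to 3′ along the transcribed strand, in lower case, with the CpGs that reached 5 reads in any sample in capitals. The Meg3 promoter fell at chr12:110778956-110779255 (plus strand), the Dio3 promoter at chr12:111517190-111517489 (plus strand) and the Dio3os promoter at chr12:111516229-111516528 (minus strand).
Meg3: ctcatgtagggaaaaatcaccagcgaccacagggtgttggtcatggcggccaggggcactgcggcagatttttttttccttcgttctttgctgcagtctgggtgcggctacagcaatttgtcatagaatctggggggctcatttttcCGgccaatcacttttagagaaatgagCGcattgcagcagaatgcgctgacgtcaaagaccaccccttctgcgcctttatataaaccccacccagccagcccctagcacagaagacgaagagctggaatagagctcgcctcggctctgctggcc
Dio3: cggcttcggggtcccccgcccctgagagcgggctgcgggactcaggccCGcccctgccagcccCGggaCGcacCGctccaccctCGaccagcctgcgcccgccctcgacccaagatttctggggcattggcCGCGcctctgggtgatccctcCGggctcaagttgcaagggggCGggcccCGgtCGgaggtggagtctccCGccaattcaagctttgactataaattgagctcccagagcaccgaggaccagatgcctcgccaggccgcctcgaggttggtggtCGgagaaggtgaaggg
Dio3os: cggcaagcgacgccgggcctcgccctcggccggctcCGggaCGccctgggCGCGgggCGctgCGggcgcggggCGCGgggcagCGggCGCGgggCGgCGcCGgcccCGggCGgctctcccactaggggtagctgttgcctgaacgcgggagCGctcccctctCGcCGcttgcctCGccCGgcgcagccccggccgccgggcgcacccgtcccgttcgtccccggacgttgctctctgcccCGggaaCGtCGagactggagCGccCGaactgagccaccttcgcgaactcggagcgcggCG
The Dio3 sequence matched 13 of 13 deposited CpGs, with 4 at the next best position, and the Dio3os sequence matched 27 of 27, with 6 at the next best. The Meg3 match rests on 2 CpGs only, and no other position within 1 kb matched both. All 3 sequences hold CCGG (its own reverse complement), the site of the enzyme commonly used in this assay, as did 53.0% of the 32544 promoters in the table. Dlk1 and Mirg could not be placed at a single position, the Rian promoter holds no CG, and Rtl1 had no entry. Tiles elsewhere in the domain are therefore given by position, with no gene, exon or intron assigned.

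Between 492 and 658 CpGs of the domain were read per sample, with 3743 to 23124 reads in all. Libraries were of 3 technical types, set from how many of their CpGs had reads from both strands, and the types covered partly different CpGs. Type A (9.03 to 11.7%) held all ESC, female MEF 1 and male MEF 2. Type B (15.2 to 16.05%) held the SSEA1+ and SSEA1- libraries, female MEF 2 and male MEF 1. Type C (7.25 to 7.46%) held both iPSC libraries, female MEF 3 and female MEF 4. Counts of female MEF 3 and 4 differed by little more than sampling noise (chi-square of 1.076 per CpG, where 1 is noise alone), as did those of iPSC 1 and 2 (1.125), against 1.482 to 3.43 for the other pairs within a group. These pairs may be technical repeats, so error estimates within type C may be too small. Of 20 marker genes listed for the cell types, the promoters of 3 could be placed, none of them among the 11 pluripotency markers, so the cell type labels were not checked against markers.

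The level of the whole domain was lowest in female ESC. Over the 73 CpGs with at least 5 reads in every sample the 4 female ESC libraries lay at 36.4 to 41.3%, the male ESC libraries at 60.3 and 64.2%, and the iPSC libraries at 54.7 and 53.4%. SSEA1+ lay at 56.6 and 53.9%, SSEA1- at 53.4 and 57.2%, female MEF at 54.0 to 58.9%, and male MEF at 63.1 and 60.3%. Female ESC stood apart from every other library, while the other female groups overlapped. The same mean over 148842 autosomal CpGs was 32.7 to 33.3% for female ESC, 49.5 and 49.7% for male ESC, 43.1 and 42.2% for iPSC, and 48.9 to 54.2% for the remaining libraries. Male ESC were thus below both male MEF on autosomes (54.2 and 53.8%) but overlapped them in the domain, where the 2 groups averaged 62.3 ± 2.72% and 61.7 ± 1.96% (mean ± SD, n = 2 each).

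**Figure D1:**
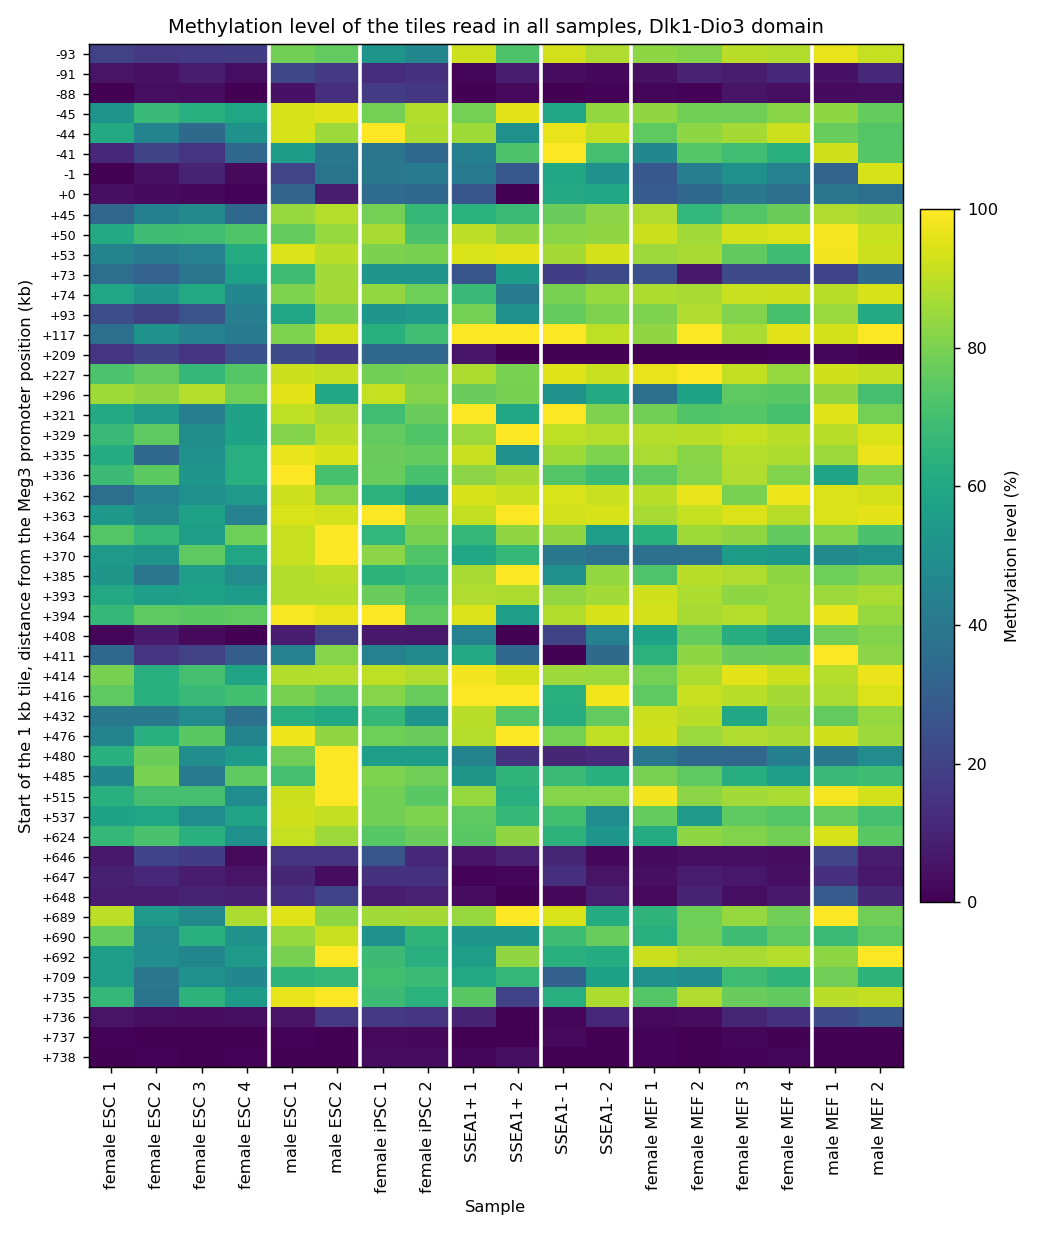
Heat map of the methylation level (%, colour) of the 51 domain tiles of 1 kb that held a CpG with at least 5 reads in every sample. Rows run along the chromosome and are labelled by distance in kb from the Meg3 promoter position, columns are the 18 samples, and white lines part the groups. Female ESC are darker (lower) than MEF over most rows, the rows at -1 and 0 kb (Meg3) are intermediate in most libraries outside female ESC (not in SSEA1+ 2 and male ESC 2, at 0 and 7.69% in the row at 0 kb, or male MEF 2, at 94.1% in the row at -1 kb), and the rows at +737 and +738 kb (Dio3) are near 0 in every sample.

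For tests, reads were summed over fixed tiles of 1 kb with at least 3 CpGs of 5 or more reads in every sample. That left 33545 tiles in the genome, 16 of them in the domain. A tile counted as called, with its direction, when its adjusted p was under 0.05 (quasi-binomial model across all tiles, Benjamini-Hochberg) and the difference between group means was at least 20 points. A wider set with at least 1 such CpG in every sample held 102409 tiles, 51 of them in the domain.

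The Meg3 promoter region, defined as 2 kb on both sides of position 110779000, was almost unmethylated in female ESC and intermediate in the other groups. Over each sample's own CpGs with at least 5 reads, methylated reads were 8 of 313 (2.56%, exact Clopper-Pearson 95% interval 1.11 to 4.97%), 6 of 152 (3.95%), 10 of 167 (5.99%) and 2 of 127 (1.57%) in female ESC 1 to 4. Male ESC 1 had 63 of 222 (28.4%) and male ESC 2 had 23 of 101 (22.8%, 15.02 to 32.2%). The iPSC libraries had 362 of 978 (37.0%, 33.98 to 40.1%) and 397 of 1080 (36.8%, 33.9 to 39.7%). All of these libraries other than female ESC lay at an intermediate level, with intervals above those of female ESC. The female MEF libraries had 27.6, 43.4, 43.8 and 38.6%, the male MEF libraries 38.5 and 47.3%, and the SSEA1- libraries 50 and 48.6%. The SSEA1+ libraries were far apart, at 86 of 209 reads (41.1%, 34.4 to 48.1%) and 8 of 70 (11.4%, 5.07 to 21.3%). Intervals cover counting error only, since PCR copies and CpGs of 1 read are not independent. In order of their means, the groups ran from female ESC (3.52 ± 1.91%, SD, n = 4) through male ESC (25.6 ± 3.96%, n = 2), SSEA1+ (26.3 ± 21.0%, n = 2), iPSC (36.9 ± 0.18%, n = 2), female MEF (38.3 ± 7.54%, n = 4) and male MEF (42.9 ± 6.21%, n = 2) to SSEA1- (49.3 ± 0.99%, n = 2). Female ESC lay below every other library. Male ESC lay below both iPSC and both male MEF libraries but overlapped the ranges of female MEF and SSEA1+. The iPSC lay below both male MEF libraries and within the ranges of female MEF and SSEA1+. SSEA1- lay above the other libraries only with reads pooled over own CpGs: with each own CpG weighted equally they stood at 42.6 and 46.8% beside 59.9% in male MEF 2, and over the 7 CpGs that the type B libraries shared at 51.8 and 47.1% of reads beside 50.6% in SSEA1+ 1.

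The single CpG of this region that reached 5 reads in all 18 samples, at 110779280, was low in female ESC and scattered more elsewhere. It had 0 of 32, 0 of 20, 2 of 27 (7.41%) and 0 of 13 reads methylated in female ESC 1 to 4, where 0 of 32 allows up to 9.38%. Male ESC stood at 37.9 and 20%, iPSC at 37.7 and 30.5%, SSEA1+ at 57.1 and 0%, SSEA1- at 76.5 and 80.8%, female MEF at 7.69, 26.7, 46.2 and 36.0%, and male MEF at 33.3 and 50%. SSEA1+ 2 was level with female ESC at this CpG, and female ESC 3 and female MEF 1 were close (7.41 and 7.69%), where female MEF 1 had only 13 reads.

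The tile ending at the Meg3 position (chr12:110778001-110779000, 3 to 9 CpGs and 17 to 465 reads per sample) was the 1 tested tile near Meg3. It stood at 0, 4.60, 10 and 2.50% in female ESC, at 27.0, 42.9, 50.3 and 43.4% in female MEF, at 40.1 and 40.9% in iPSC and at 21.0 and 38.8% in male ESC. Female ESC did not overlap any of the other 3 groups. The tile was 36.6 points lower in female ESC than in female MEF (adjusted p = 7.52e-06) and 36.2 points higher in iPSC than in female ESC (adjusted p = 1.50e-04). Within type A only 1 female MEF library remained, here and in every type A fit below, and that lone sample is assumed to vary like the groups with more than 1, whose spread the fit uses. The first difference was then 22.8 points (adjusted p = 0.0465, the highest over 16 alternatives, whose lowest was 3.75e-06). Against male ESC female ESC were 25.6 points lower (adjusted p = 0.0113), but this call was lost without male ESC 2 (16.7 points lower, adjusted p = 0.093, with 0.00589 the lowest over 14 alternatives). Male MEF were split at 32.6 and 94.1%, the latter the highest level of any library in this tile and from type A. The 94.1% rests on 17 reads at 3 CpGs, the fewest reads of any library there. The other groups stood at 41.2 and 27.3% (SSEA1+) and 60 and 50.6% (SSEA1-).

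The next tile (chr12:110779001-110780000), which holds most of the promoter and was tested only in the wider set, had group means in the same order for female ESC, male ESC, iPSC and female MEF. Levels were 4.28, 3.08, 2.30 and 1.15% in female ESC, 35.1 and 33.7% in iPSC, 28.6, 33.3, 39.9 and 36.3% in female MEF, and 32.6 and 7.69% in male ESC. It was 31.8 points lower in female ESC than in female MEF (adjusted p = 9.13e-08) and 31.7 points higher in iPSC than in female ESC (adjusted p = 1.26e-05). SSEA1- stood at 60.5 and 60% and SSEA1+ at 26.9 and 0%, a difference of 46.8 points in the wider set (adjusted p = 0.0318). It was not called within type B (adjusted p = 0.715), the type of all 4 libraries. No tile of the genome was called between these groups within type B, so that fit could not tell whether the difference holds. At the 2 CpGs inside the printed Meg3 promoter, methylated reads were 0 to 10.96% in female ESC, 31.7 and 34.8% in iPSC, and 43.5, 42.2 and 40.5% in female MEF 1, 3 and 4, while female MEF 2 had none with 5 reads. Male ESC stood there at 20 and 0% (0 of 32 reads), SSEA1+ at 8 and 0%, male MEF at 35.3 and 9.68%, and SSEA1- at 0 and 57.1% (6 and 14 reads, 1 CpG each). Female ESC thus overlapped male ESC, SSEA1+, SSEA1- and male MEF at these 2 CpGs, and lay below iPSC and the 3 female MEF libraries.

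**Figure D2:**
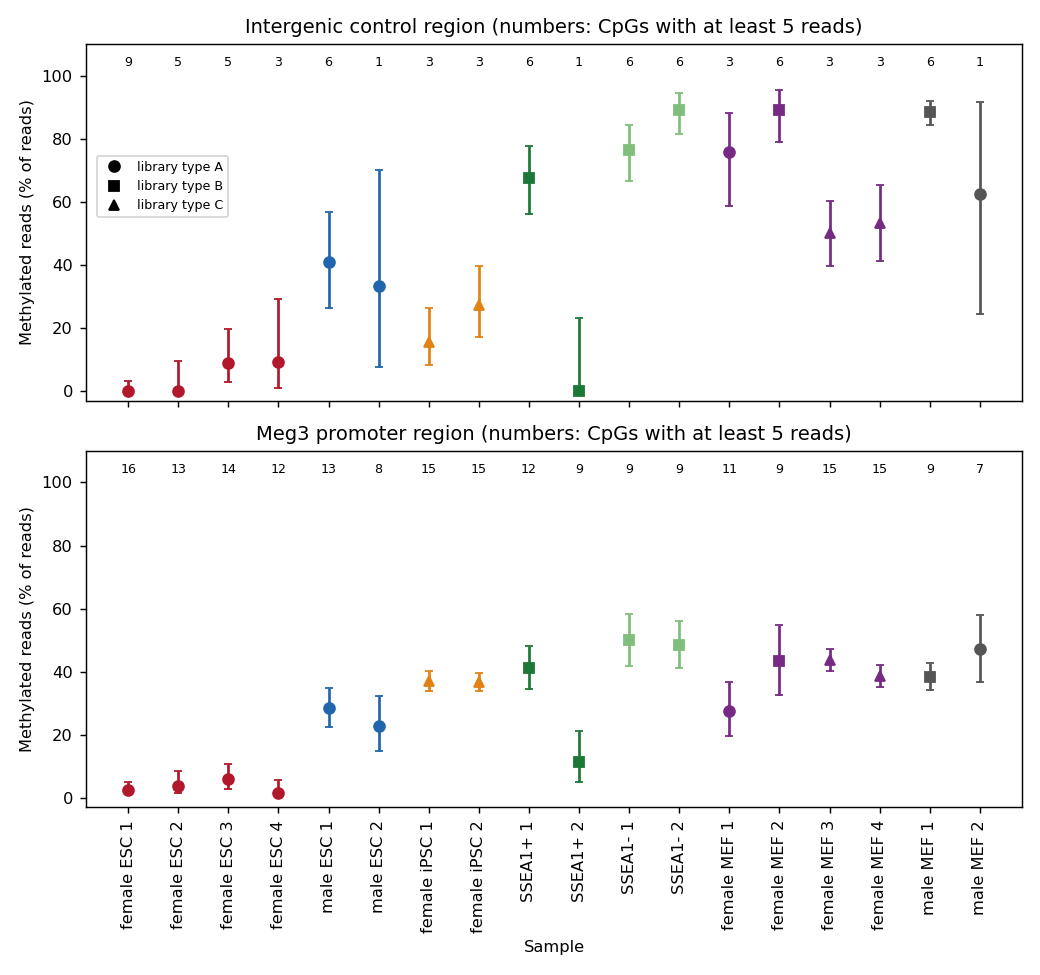
Percentage of methylated reads per sample in the intergenic control region (top) and in the Meg3 promoter region (bottom), over each sample's own CpGs with at least 5 reads. Bars are exact 95% binomial intervals, symbols give the library type, colours the group, and the number above each point counts its CpGs. Female ESC are near 0 in both panels, at 0 to 9.09% and 1.57 to 5.99%.

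The intergenic control region (chr12:110764000-110770000) was thinly covered: 9 of its CpGs reached 5 reads in some sample and none in all 18. At 5 reads, type B read only CpGs of a cluster of 6 between 110764001 and 110764946. Type C read only 3 CpGs, at 110766835, 110767055 and 110767079. Type A read CpGs of both sets, and its libraries differed in which CpGs reached 5 reads. Levels across types, and partly those within type A, therefore come from different CpGs, and the 3 types are given apart. In type A, methylated reads were 0 of 110 in female ESC 1 (which allows up to 2.73%), 0 of 37 in female ESC 2 (up to 8.11%), 5 of 56 (8.93%) and 2 of 22 (9.09%) in female ESC 3 and 4. Male ESC had 18 of 44 (40.9%, 26.3 to 56.8%) and 3 of 9 (33.3%), female MEF 1 had 28 of 37 (75.7%, 58.8 to 88.2%) and male MEF 2 had 5 of 8. Every female ESC library lay below the other 4 libraries of type A, over partly different CpGs. At a minimum of 3 reads, the type A libraries shared 1 CpG. There female ESC 1 to 4 had 0 of 32, 0 of 3 (which allows up to 100%), 1 of 22 and 0 of 12 reads methylated. Male ESC had 4 of 7 and 3 of 9 at that CpG, female MEF 1 had 12 of 19 and male MEF 2 had 5 of 8. In the tile at chr12:110764001-110765000 the difference was 70.6 points between female ESC and the 1 female MEF library (adjusted p = 0.00739, with the lone sample assumed to vary like the other groups) and 38.8 points between female and male ESC (adjusted p = 0.0166), both lower in female ESC in the type A fit with 1 or more CpGs.

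In type B the control region was mostly methylated in 5 of the 6 libraries, and SSEA1+ 2 was too thinly read to place. Methylated reads were 58 of 65 (89.2%) in female MEF 2, 254 of 287 (88.5%) in male MEF 1, 74 of 97 (76.3%) and 91 of 102 (89.2%) in SSEA1-, and 54 of 80 (67.5%, 56.1 to 77.6%) in SSEA1+ 1. The MEF levels in this cluster thus lay above the intermediate level described for a normal imprint. At the CpGs read by type C, female MEF 3 and 4 stood at 50 and 53.4%. The reason for this difference between CpGs was not tested. SSEA1+ 2 had 0 of 14 reads at the 1 CpG that reached 5 reads, which allows up to 21.4%. At a minimum of 3 reads, over the 6 CpGs that the type B libraries shared, it had 17 of 34 (50%, 32.4 to 67.6%), where SSEA1+ 1 had 54 of 80. With each of these CpGs weighted equally, SSEA1+ 1 and 2 stood at 66.7 and 70.8%, so the 0% holds for that CpG only. At the CpG with 0 of 14, SSEA1+ 1 had 5 of 16 (31.3%), SSEA1- had 24 of 33 and 22 of 29, female MEF 2 had 5 of 9 and male MEF 1 had 16 of 22. Both SSEA1+ libraries lay below the other 4 there, with intervals of 11.02 to 58.7% and 0 to 23.2% against 54.5 to 86.7% and 56.5 to 89.7% in SSEA1-. No tile of the genome was called between SSEA1+ and SSEA1- within type B, and the tile difference at the control region (49.0 points, in which SSEA1+ 2 enters with the 14 reads of 1 CpG) had an adjusted p of 0.755.

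In type C, iPSC were lower than female MEF at the control region while the Meg3 promoter differed little. Over the 3 CpGs, iPSC 1 and 2 had 11 of 70 (15.7%, 8.11 to 26.4%) and 18 of 66 (27.3%, 17.03 to 39.6%) reads methylated, and female MEF 3 and 4 had 48 of 96 (50%, 39.6 to 60.4%) and 39 of 73 (53.4%, 41.4 to 65.2%). The tile with 2 of these CpGs (chr12:110767001-110768000) stood at 7.89 and 22.5% against 60 and 60%, 44.8 points lower in iPSC (adjusted p = 2.46e-05). Its 2 CpGs had equal read numbers in each library (19 and 20 in iPSC, 25 and 25 in female MEF). The same reads may thus be counted at both, which would make this p-value too small and the intervals above too narrow. Female MEF 3 and 4 also had the same methylated counts there, 17 and 13 of 25. The third CpG, in the neighbouring tile, stood at 25 and 34.6% against 39.1 and 39.1%, 9.32 points lower and not called (adjusted p = 0.329). At the Meg3 promoter region the same libraries shared 15 CpGs, whose mean was 34.6 and 34.5% in iPSC and 41.8 and 37.4% in female MEF. The tiles on both sides of the Meg3 position were 6.41 and 3.68 points lower in iPSC and not called (adjusted p = 0.0545 and 0.144). With pairs that may be technical repeats, these p-values compare little more than 1 source with another.

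**Figure D3:**
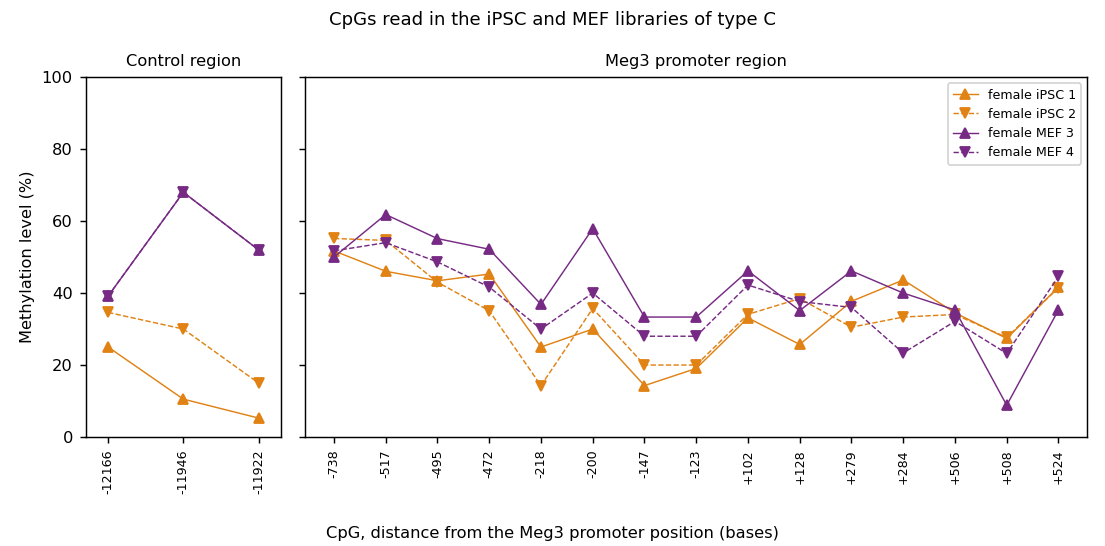
Methylation level (%) of each CpG that reached 5 reads in the 4 libraries of type C, at the control region (left, 3 CpGs) and the Meg3 promoter region (right, 15 CpGs), by distance in bases from the Meg3 promoter position. Orange marks iPSC and purple female MEF, and lines only join the CpGs of a library. The MEF points lie at 39.1 to 68.0% on the left, above all iPSC points at 5.26 to 34.6%, while the points mix on the right.

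On the Dlk1 side of the domain, the tile 93 kb before the Meg3 position (chr12:110686001-110687000, 4 or 5 CpGs) differed most between groups. It stood at 19.6, 16.5, 17.5 and 18.2% in female ESC, 51.9 and 46.4% in iPSC, 78.9 and 76.1% in male ESC, and 81.2 to 89.8% in female MEF. SSEA1+ stood at 92.5 and 72.1%, SSEA1- at 93.0 and 88.0%, and male MEF at 96.3 and 91.3%. Female ESC, iPSC and male ESC formed 3 steps without overlap, all below both kinds of MEF. Female ESC were 67.6 points below female MEF (adjusted p = 3.08e-10) and 59.5 points below male ESC (adjusted p = 2.69e-07). The iPSC were 36.4 points below female MEF (adjusted p = 3.15e-05) and 28.3 points below male ESC (adjusted p = 0.00309). They were also 33.1 points below SSEA1+ (adjusted p = 4.06e-04), a call lost without SSEA1+ 1 (22.9 points, adjusted p = 0.0937, with 7.60e-05 the lowest over 11 alternatives). The 31.2 points by which iPSC exceeded female ESC (adjusted p = 8.09e-04) were not called with library type as a term (adjusted p = 0.313, with 6.04e-04 the lowest over 13 alternatives). Within type C, where iPSC and MEF were read alike, the tile was 39.9 points lower in iPSC (adjusted p = 5.83e-10), and within type A female ESC were 65.0 points below female MEF 1 (adjusted p = 5.50e-04, under the same assumption for a lone sample).

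The nearby CpG-dense tiles were low in every library. The tile 88 kb before Meg3 (chr12:110691001-110692000, up to 33 CpGs) stood at 0 to 3.55% in female ESC, 1.09 to 5.25% in female MEF, 2.85 and 3.42% in male MEF, 0.235 to 2.45% in the SSEA1-sorted libraries, 4.94 and 13.5% in male ESC, and 17.5 and 16.4% in iPSC. Both iPSC libraries were the highest of the 18. The tile 91 kb before Meg3 (chr12:110688001-110689000, up to 15 CpGs) stood at 3.73 to 7.43% in female ESC and 4.35 to 11.4% in female MEF, with male ESC at 21.5 and 16.4% and iPSC at 12.9 and 14.6%. None of these differences reached the 20 points of a call.

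After the Meg3 promoter, through the stretch that in the RefSeq gene order holds Rtl1, Rian, Mirg and 61 microRNA genes before Dio3, and on to the end of the domain, 12 tiles were tested. Of these, 4 had a female MEF mean of at least 70%, and 3 were called lower and 1 higher in female ESC than in female MEF. The tile 393 kb after Meg3 (chr12:111172001-111173000) stood at 60.5, 55.6, 57.3 and 55.3% in female ESC, 83.2 to 92.6% in female MEF, 88.4 and 88.4% in male ESC, and 77.0 and 70.8% in iPSC. Female ESC lay below every other library. They were 29.8 points below female MEF (adjusted p = 3.24e-07) and 31.3 points below male ESC (adjusted p = 1.02e-05). The tile 414 kb after Meg3 (chr12:111193001-111194000) stood at 58.6 to 79.3% in female ESC and 90.2 and 88.1% in iPSC, 21.4 points higher in iPSC (adjusted p = 0.0239). That call was lost without either iPSC library (adjusted p = 0.105 and 0.122, with 0.0143 and 0.893 the lowest and highest over 13 alternatives) and without female ESC 2 or 4. Female ESC were also 20.8 points below female MEF in this tile (adjusted p = 0.00143). This second call was lost in 7 of 16 alternatives, among them library type as a term (adjusted p = 0.0728). Within type A the difference was 11.2 points.

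A tile 480 kb after Meg3 (chr12:111259001-111260000, 3 to 9 CpGs) went the other way. It stood at 63.3, 77.5, 49.0 and 55.2% in female ESC. Male ESC stood at 78.1 and 100%, and iPSC at 55.8 and 56.1%. Female MEF stood at 33.0 to 43.1%, male MEF at 40 and 48.4%, SSEA1+ at 44.8 and 14.8%, and SSEA1- at 10.8 and 12%. All ESC and iPSC libraries lay above all MEF libraries, and both SSEA1- libraries lay below all others. The tile was 24.1 points higher in female ESC than in female MEF (adjusted p = 0.00507) and 44.9 points higher in male ESC than in male MEF (adjusted p = 2.51e-04). Neither was called within type A (22.0 points, adjusted p = 0.214, and 40.7 points, adjusted p = 0.108), where 1 MEF library of each sex remained and was assumed to vary like the ESC groups. Over 16 and 12 alternatives the adjusted p ranged from 0.0026 to 0.214 for female and from 1.77e-04 to 0.108 for male cells. SSEA1- were 25.7 points below female MEF (adjusted p = 0.00825), with 0.00474 the lowest over 14 alternatives. That call was lost with limma (adjusted p = 0.139), with library type as a term (0.245) and without SSEA1- 2 (26.3 points). Within type B, with 1 female MEF library, SSEA1- were 21.9 points lower. No tile of the genome was called in that comparison, so it could not tell whether the difference holds. The iPSC were 33.1 points below male ESC (adjusted p = 0.00698), a call lost with library type as a term (adjusted p = 0.0814) and without male ESC 2 (22.2 points, adjusted p = 0.0844, the highest over 11 alternatives, with 0.00673 the lowest).

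The tile 690 kb after Meg3 (chr12:111469001-111470000, 5 CpGs) was highest in male ESC, at 84.6 and 91.7%, with iPSC at 51.0 and 65.5%, female ESC at 48.3 to 76.5% and female MEF at 62.5 to 78.6%. Male ESC lay above all other libraries. The iPSC were 29.9 points below male ESC (adjusted p = 0.007), a call lost without male ESC 1 (adjusted p = 0.0539) and with library type as a term (0.067, the highest over 11 alternatives, with 0.00673 the lowest).

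At the other end of the domain, Dio3 and Dio3os were unmethylated in every group. The tile with the Dio3os promoter (chr12:111516001-111517000, 10 to 43 CpGs and 72 to 2155 reads) stood at 0 to 2.67% in the 18 libraries, and the tile with the Dio3 promoter (chr12:111517001-111518000, 10 to 19 CpGs) at 0 to 4.04%. In the printed Dio3 promoter the methylated reads were 0 to 4.08%, with iPSC 1 and 2 at 2.58 and 4.08% and female MEF 3 and 4 at 0.452 and 0.917%. In the Dio3os promoter they were 0 to 4.70% in the 14 libraries with reads there. No comparison called either tile.

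Counts over the 16 tiles place these tiles in the whole genome. Between female ESC and female MEF 5 were lower and 1 was higher, where 37.5% of all 33545 tiles were called lower and 0.894% higher. Between male ESC and male MEF 1 was higher and none lower, with 3.8% higher and 18.9% lower in the genome. Female ESC were lower than male ESC in 7 and higher in none (26.8% lower and 0.0358% higher in the genome). Between iPSC and female MEF 1 was lower (genome 23% lower, 2.55% higher), and between iPSC and female ESC 4 were higher (11.2% higher, 0.247% lower). Between iPSC and male ESC 3 were lower (9.16% lower, 0.614% higher), and between iPSC and SSEA1+ 1 was lower (20.1% lower, 3.68% higher). SSEA1- had 1 tile lower than female MEF (1.7% lower, 0.31% higher). With 16 tiles, none of these shares is read as particular to the domain, and that of female ESC against female MEF was close to the background.

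No tile of the domain was called by the quasi-binomial model between SSEA1+ and female MEF (genome 0.441% higher, 2.32% lower), where 4 of 16 had an unadjusted p under 0.05. The same held between SSEA1+ and SSEA1- (0.516% higher, 0.793% lower), with 6 of 16 at such a p, and between female and male MEF (0.808% higher, 0.882% lower), with 6 of 16. The tiles 646 and 648 kb after Meg3 had an adjusted p of 0.0206 and 0.00999 between female and male MEF. They were not called because their differences, -10.7 and -14.1 points, did not reach 20 points. Limma called no domain tile in these comparisons either. The percentages in brackets are of called tiles. No genome share at an unadjusted p is given, so the counts at such a p are not read as an excess in the domain. Level differences across these 16 tiles had medians of -2.10, 0.81 and -4.40 points.

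In the wider set of 51 tiles, female ESC were lower than female MEF in 28 and higher in 2 (57.4% called in the genome), with a median difference of -20.7 points against -23.1 over all tiles. They were lower than male ESC in 32 and higher in none (53.5% called), with a median of -27.5 points against -24.0. Male ESC differed from male MEF in 4 (3 higher, 1 lower, 16.5% called), with a median of -0.16 against -0.29. The iPSC were lower than female MEF in 9 and higher in 4 (24.7% called), with a median of -0.79 points against -9.95 over all tiles. They were higher than female ESC in 15 and lower in none (16.5% called), and lower than male ESC in 8 and higher in none (15.4% called). SSEA1+ were lower than female MEF in 1 (3.25% called) and than SSEA1- in 1 (1.47%), SSEA1- were lower than female MEF in 3 (2.89%), and iPSC were higher than SSEA1+ in 2 and lower in 4 (19.9%). Between female and male MEF none was called (1.6%), with 14 of 51 at an unadjusted p under 0.05, for which no genome share is given. Of the 28 tiles lower in female ESC than in female MEF, 24 were also lower than in male ESC, and these comparisons share the female ESC libraries. The 6 tiles before the control region had 4 called lower in female ESC than in female MEF, and the 43 after the Meg3 promoter had 22 lower and 2 higher.

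Tiles of the wider set with other patterns were chosen for display after their values were seen. The tile 209 kb after Meg3 (chr12:110988001-110989000) stood at 0 to 1.31% in all MEF and both SSEA1- libraries, 5.77 and 0% in SSEA1+, while female ESC stood at 15.4 to 25%, male ESC at 23.2 and 17.2% and iPSC at 33.8 and 33.7%. It was thus low in all MEF and above them in every ESC and iPSC library. It was 33.4 points higher in iPSC than in female MEF (adjusted p = 2.38e-09) and 33.2 points higher within type C (adjusted p = 5.31e-11). The tile 408 kb after Meg3 (chr12:111187001-111188000) stood at 55.9 to 76.2% in female MEF, 78.2 and 81.0% in male MEF, and SSEA1+ 1 at 44.1%. SSEA1+ 2 had 0 of 5 reads at 1 CpG there, which allows up to 60%, so its place among the groups could not be told. SSEA1- stood at 20.7 and 43.4%, female ESC at 0 to 7.04%, male ESC at 7.54 and 19.3%, and iPSC at 6.99 and 6.52%. MEF lay above SSEA1+ 1 and both SSEA1- libraries there. It was lower in female ESC than in female MEF by 60.4 points (adjusted p = 1.54e-09), in male ESC than in male MEF by 66.1 (adjusted p = 2.92e-07) and in iPSC than in female MEF by 56.4 (adjusted p = 4.20e-11), and was called lower within types A and C as well. It was the 1 tile of the 51 called lower in male ESC than in male MEF. The tile 73 kb after Meg3 (chr12:110852001-110853000) stood at 6.78 to 24.3% in female MEF, female ESC at 31.2 to 57.1%, male ESC at 69.1 and 86.2% and iPSC at 52.6 and 52.0%. Male MEF stood at 20.1 and 34.1%, so that male MEF 2 lay above the lowest female ESC library. SSEA1+ stood at 26.4 and 55% and SSEA1- at 18.3 and 22.5%. Against MEF of the same sex the tile was higher by 21.6 points in female ESC (adjusted p = 0.0275), 50.5 in male ESC (adjusted p = 5.61e-05) and 33.0 in iPSC (adjusted p = 1.13e-04).

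**Figure D4:**
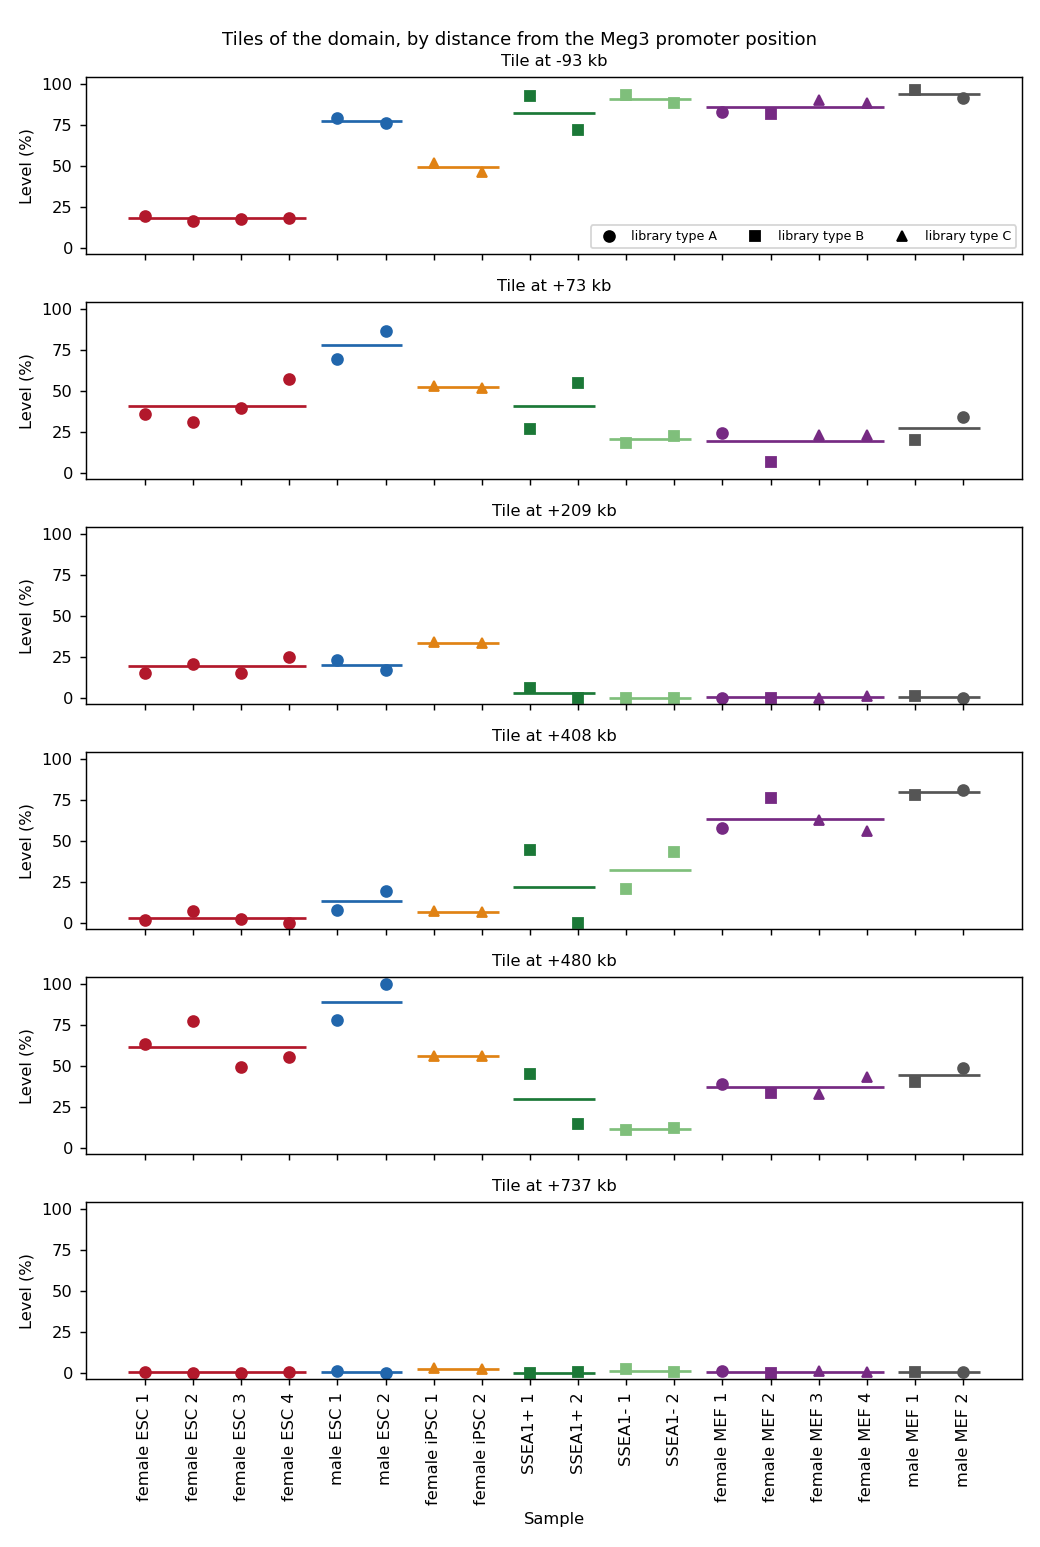
Methylation level (%) of 6 domain tiles in each of the 18 samples, each panel named by its distance in kb from the Meg3 promoter position. Points are samples, symbols the library type, and horizontal lines group means. The first tile, 93 kb before Meg3, rises from female ESC (16.5 to 19.6%) through iPSC to male ESC, those at +73, +209 and +480 kb have higher group means in ESC and iPSC than in MEF, that at +408 kb is higher in MEF, and that at +737 kb is near 0 throughout.

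Across the intermediates, the 2 SSEA1+ libraries were apart in some of these tiles. SSEA1+ 2 had the fewest domain reads of all libraries (3743, against 8511 in SSEA1+ 1). It had 0 of 36 reads methylated, which allows up to 8.33%, in the tile after the Meg3 position, where SSEA1+ 1 stood at 26.9%. It also had the lower level in the tile 93 kb before Meg3 and in that 480 kb after it. The part of depth in these differences was not tested. Within type B, 31 domain tiles were tested, and none was called in any of the 3 comparisons of intermediates, as in the genome (0%). At an unadjusted p under 0.05 there were 5 between SSEA1+ and SSEA1-, for which no genome share is given.

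Within type C, 61 domain tiles were tested between iPSC and female MEF 3 and 4, and 12 were lower and 4 higher in iPSC (30.2% called in the genome). Within type A, 16 of 35 tiles were lower in female ESC than in female MEF 1 and none was higher (41.5% called), and 19 were lower than in male ESC (39.9% called). Between male ESC and male MEF 2, 1 tile of 35 was lower (16.2% called), and between female MEF 1 and male MEF 2 none was called (0%). With 1 CpG per tile, 27 of 125 tiles were lower and 8 higher in iPSC within type C (29.6% called). Within type A 34 of 97 were lower and 1 higher in female ESC than in female MEF 1 (34.1%), 58 were lower than in male ESC (52.7%), and 1 was lower and 1 higher in male ESC than in male MEF 2 (7.12%).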

How the data were processed

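Reduced representation bisulfite sequencing was deposited as 1 table per sample, for 18 mouse samples in 7 groups set from the labels. The authors' deposited tables give, per CpG and strand, counts of all reads and of methylated ones, which were used as they stand, and a score set by the authors, not used. Positions are on mm9, per the submitters' processing notes. Aligner and caller: not given in the sources used here. Strands were added, a CpG was used at 5 or more reads, and reads were summed over tiles of 1 kb. A quasi-binomial model with 7 group means was fitted to all tiles in all samples, with dispersion moderated as in limma's squeezeVar and never below 1. It was tested on simulated counts. Total reads per sample were 11424460 to 62920167, and exact binomial intervals give the precision of single levels. Alternatives were a minimum of 10 or 3 reads, at least 1 CpG per tile, limma, a replicate block, library type as a term, a cap of 50 reads, female MEF 3 and 4 as 1 sample and leaving out each sample. Fits within library types were chosen after seeing the data. Named tiles are those tested within 2 kb of the Meg3 position or in the control region, and per comparison the 2 largest called differences in each direction elsewhere. Tiles outside this rule were chosen after their values were seen. The domain, lists and tests were chosen with earlier results of these data known. The tools were limma 3.58.1 in R 4.3.3 and, in Python 3.11.15, numpy 2.4.6, scipy 1.17.1, pandas 2.3.3 and matplotlib 3.10.9.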

Additional observations from a re-analysis of the deposited data

Results flagged for a closer look

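The CpG of the Meg3 promoter region read in all samples stood at 7.41% in female ESC 3 and at 0% in the other 3 female ESC, which flagged this sample as an outlier. The flag rests on 2 methylated reads of 27. The other libraries had 0 of 32, 0 of 20 and 0 of 13, and each of these allows a level above 7.41%. The counts thus do not set female ESC 3 apart. The rule is set to flag about 1 in 20 groups of this size by chance, a rate that does not hold for counts this small. In all, 38 groups of 4 were looked at.

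The difference between ESC and MEF was not the same in female and male cells at 5 of the 16 tiles, by a test of the interaction on the logit scale (quasi-binomial model, Benjamini-Hochberg over all tiles). In the genome 8322 of 33545 tiles (24.8%) had such an adjusted p under 0.05, so the share in the domain is not read as particular to it. The female difference minus the male difference was -51.3 points 93 kb before Meg3 (adjusted p = 0.0152), -14.1 points 91 kb before (adjusted p = 0.00463), -31.9 points 393 kb after (adjusted p = 0.00211) and -27.8 points 690 kb after (adjusted p = 0.0197). At the tile before the Meg3 position it was only -3.14 points (adjusted p = 0.015): ESC were 36.6 points below MEF in females and 33.5 in males. There 1 male MEF library stood at 94.1%, on 17 reads, and the other at 32.6%. The points weight these libraries equally, while the model weights each library by its reads. The -3.14 points are therefore not the difference that was tested. In that model ESC and MEF differed in females (adjusted p = 7.52e-06) and not detectably in males (adjusted p = 0.583). The logit scale also widens differences near 0%.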

How the results depend on the processing

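Counts of called domain tiles moved mainly with how many tiles could be tested. At a minimum of 10 reads 4 tiles were tested and 0 were called in every comparison. At a minimum of 3 reads 25 were tested. Called then were 14 in female ESC against female MEF, 2 in male ESC against male MEF, 7 in iPSC against female MEF, 14 in female against male ESC, 7 in iPSC against female ESC and 5 against male ESC, 1 in SSEA1+ and 2 in SSEA1- against female MEF, 1 in SSEA1+ against SSEA1-, and 3 in iPSC against SSEA1+. In the same order 45.9, 22.5, 28.3, 35.2, 14.4, 12, 3.19, 2.31, 1.45 and 25.6% of all 49200 tiles were called at 3 reads. With 1 CpG per tile the counts were 30, 4, 13, 32, 15, 8, 1, 3, 1 and 6. Within library types, counts with 3 and with 1 CpG per tile were 16 and 35 (female ESC against MEF), 2 (male ESC against MEF, 1 CpG), 19 and 58 (female against male ESC), 16 and 35 (iPSC against MEF), and 0 and 0 (SSEA1- against MEF). Library type as a term left 1 call for iPSC against female ESC, 1 against male ESC and 0 for SSEA1-. It also lost the calls 414 and 480 kb after Meg3 in female ESC against female MEF (adjusted p = 0.0728 and 0.085). Limma left 2 for iPSC against female ESC and 0 for SSEA1-; the cause was not tested.

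With the replicate block the call in SSEA1- against female MEF was lost (0), no other count moved by over 1.5 times, and 1 further call, 329 kb after Meg3 between female and male ESC, was lost (adjusted p = 0.0585). The numbers did not pair the samples: same-numbered samples had correlations of -0.27 to 0.046.

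Leaving out 1 sample gave 4 to 6, 1 to 2, 1 to 2, 4 to 7, 2 to 4, 2 to 3, 0 to 0, 0 to 1, 0 to 0 and 1 to 2 calls in the order above, and 0 to 1 in female against male MEF. No share of all tiles called is given for these fits. The same holds for a minimum of 10 reads, limma, the replicate block and library type as a term. Calls gained or lost in them are therefore not read as particular to the domain. The libraries whose omission moved a count by over 1.5 times were male MEF 1 (2 in male ESC against MEF), female MEF 4 (2 in iPSC against MEF), male ESC 2 (4 in female against male ESC), female ESC 2 and each iPSC (2 in iPSC against female ESC), SSEA1- 2 (0 against MEF), SSEA1+ 1 (2 in iPSC against SSEA1+) and male MEF 2 (1 in female against male MEF). None of the 24 called differences in the domain reversed under the settings run. The Meg3 level of SSEA1-, 78.6% at 1 CpG, was 54.9% at 3 reads and 44.7% over own CpGs weighted equally (49.3% weighted by reads); no CpG shared by all samples had 10 reads, and over own CpGs with 10 reads SSEA1- had 51.8 and 48.6% of reads. The control region of male ESC, 39.3% over own CpGs weighted equally, was 51.2% at 3 reads. At 10 reads it was 27.3%, where only 2 CpGs of male ESC 1 remained and none of male ESC 2. The control region rests on 8 and 9 reads in male MEF 2 and male ESC 2.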
